A study of Mus musculus with 6 samples.

Results

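The genes described here encode the proteins of the cytosolic ribosome, together with close relatives that carry ribosomal protein names. They were taken as every gene symbol that starts with Rpl or Rps followed by a digit, or that is Rpsa, Rplp0, Rplp1 or Rplp2, on array probes annotated with a single symbol, leaving out the S6 kinases and pseudogenes. The rule found 50 genes, measured by 106 probes, among the 18193 genes with such a probe. By role, 43 are canonical subunits (22 of the large and 21 of the small subunit), 6 are paralogs (Rpl22l1, Rpl39l, Rpl3l, Rpl7l1, Rps27l and Rps4l) and 1, Rps19bp1, is a nucleolar protein that binds Rps19. A further 31 ribosomal protein symbols occurred only on probes shared between several symbols and are not members. Rpl3, Rpl5, Rpl10 and Rplp1 are therefore not described here.

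Expression was measured on 6 microarrays of mouse thymocytes, 2 for each of 3 stages: double-positive cells (DP), which carry CD4 and CD8, cells with intermediate CD4 (CD4intCD8+), and CD8 single-positive cells (CD8SP). Sorting used antibodies to CD4 and CD8 on cells of 6 mice of matched age and sex, 5 to 6 weeks old, in a pair of independent experiments. Every group came from N15 TCR tg+/+ RAG-2-/- H-2b animals, so the N15 T cell receptor transgene and the loss of Rag2 are common to all groups. The homozygous transgene supplies the only rearranged receptor, and no array of mice without it was used here. The comparisons ask how expression changes as DP cells become intermediate and then CD8SP cells.

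A ribosome is built from ribosomal RNA and about equal amounts of each ribosomal protein, which are assembled in the nucleolus with the help of many transient factors. Messenger RNAs of canonical ribosomal proteins are abundant in all cells and begin with a C and a run of pyrimidines, the terminal oligopyrimidine tract, through which mTORC1 controls how well they are translated. Some subunits have paralogs of restricted expression that can take the place of the common protein, and Rpl22 is known for its part in early alpha beta T cell development in mice, where it also represses its own paralog Rpl22l1.

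Values are the deposited linear probe intensities, which have no absolute unit and cannot be compared between probes. Log2 changes are of log2(intensity + 5.84), ± standard error (SE), and a change was called at a limma adjusted p under 0.05 over all 10916 genes that passed a filter on dim signal. Array medians lay between 24.9 and 25.7 and 3.60% of the values were below 0. The actin 3' to 5' signal ratio, a measure of RNA or cDNA length, was 1.98 and 2.14 for DP cells, 2.37 and 3.47 for CD4intCD8+ cells and 2.28 and 2.62 for CD8SP cells. It was higher on every later array and highest on CD4intCD8+ replicate 2. The Gapdh 3' to 5' ratio was 1.37 and 1.53 for DP cells, 1.42 and 1.99 for CD4intCD8+ cells and 1.40 and 1.48 for CD8SP cells. The Gapdh ratio overlapped between the stages and was also highest on CD4intCD8+ replicate 2. Summed signal of the 6 measured markers of DP thymocytes was 7455 and 8361 in DP cells, 3548 and 3139 in CD4intCD8+ cells and 2364 and 2568 in CD8SP cells. That list includes Cd4 and Cd8a, on which the cells were sorted, so its fall is not independent of the sort. Of the 5 tested, 4 were called lower in both later stages and 1 had a positive change that was not called. The 5 markers of the CD8 T lineage, Cd8a among them, summed to 7207 and 7771 in DP cells. Their sums were 6276 and 4257 in CD4intCD8+ cells and 7066 and 6182 in CD8SP cells. In each later stage 2 of them were called higher and 2 lower against DP. Summed signals of B cell, myeloid, dendritic, thymic epithelial, erythroid and natural killer markers lay between 21.2 and 213 on every array. Most of these markers were too dim to be tested. Those that passed the filter were 1 of 3 B cell, 3 of 5 myeloid and 1 of 4 dendritic markers. So did 2 of 5 thymic epithelial, 1 of 3 erythroid and 0 of 2 natural killer markers. Of the markers tested 0 were called. With the replicate number as a block 1 myeloid marker was higher in CD4intCD8+ and 1 erythroid marker lower in CD8SP against DP. The 2 gamma delta T cell markers measured summed to 409 and 277 in DP cells, 724 and 678 in CD4intCD8+ cells and 670 and 756 in CD8SP cells, and 1 of them, Cd163l1, was called higher. In these animals the transgene supplies the only rearranged receptor, so that sum is not read as a content of gamma delta T cells. The sum moved with the rises described below, and its part in them was not tested. Fewer cells of a type and less RNA per cell cannot be told apart in sorted bulk samples. The array medians are nearly equal, and a change in total RNA per cell cannot be seen in these values.

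After the DP stage 11 members were higher and 0 were called lower, while most canonical subunits moved little. In CD4intCD8+ against DP, 10 of the 48 members tested were higher, 0 were lower and 38 were not called. Over all genes tested 11.7% were called in this comparison, 6.89% higher and 4.85% lower. In CD8SP against DP, which uses the same DP arrays, 11 members were higher, 0 lower and 37 not called, beside 19.9% of all genes called, 11.5% higher and 8.38% lower. Of the called members, Rpl3l passed the filter only through its later stages. In CD8SP against CD4intCD8+ 2 of 48 members and 1050 of all 10916 genes had an unadjusted limma p under 0.05. After adjustment 0 of the 48 members were called (0 also with the replicate number as a block), beside 0.119% of all genes, 0.101% higher and 0.0183% lower. Fitted with that block, the shares of all genes called were 23.6% in CD4intCD8+ against DP (13.4% higher and 10.2% lower), 2.07% in CD8SP against CD4intCD8+ (1.25% and 0.824%) and 30% in CD8SP against DP (16.9% and 13.1%). The moderated F test over the stages called 10 of 48 members, beside 15.2% of all genes. The median log2 change of the tested members was 0.06 in CD4intCD8+ against DP, -0.05 in CD8SP against CD4intCD8+ and 0.01 in CD8SP against DP, where the medians of all genes were 0.01, 0.00 and 0.02.

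The count of 10 members in CD4intCD8+ against DP depended on single arrays. Leaving out DP replicate 1 gave 3 calls, leaving out DP replicate 2 gave 2, and there were 4 without CD4intCD8+ replicate 2. With the actin ratio in the fit it was 2, Rpl14 and Rpl22l1, where 410 of all genes were called in place of 1281. The 11 members called in CD8SP against DP were 6 without DP replicate 2 and 6 without CD8SP replicate 2. Fewer of all genes, too, were called in each of these fits, so the drop is not particular to the members. The counts of other groups under these fits, given below, are to be read beside that drop. Nothing in the labels beyond the pair of experiments ties an array to separate animals, so each p-value reflects only how much these arrays differ.

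Among the 6 paralogs Rpl22l1, Rps27l, Rps4l and Rpl3l were called higher in both later stages, Rpl7l1 was not called and Rpl39l was not tested. The shares called over all genes tested were 11.7% in CD4intCD8+ and 19.9% in CD8SP against DP. Rpl3l had DP values under the filter and entered the test through its higher later stages, so its call adds nothing to a count of paralogs. Without DP replicate 1 or DP replicate 2, or with the actin covariate, 1 paralog was called in CD4intCD8+ against DP. Rpl22l1, the paralog of Rpl22, had intensities of 1243 and 1237 in DP cells, 2333 and 2137 in CD4intCD8+ cells and 2504 and 2257 in CD8SP cells. Every later array lay above both DP arrays, and the later stages overlapped each other. Rpl22l1 rose 1.80-fold in CD4intCD8+ (log2 change 0.85 ± 0.09, limma adjusted p = 0.00196) and 1.91-fold in CD8SP (0.94 ± 0.09, adjusted p = 0.000312), and neither call was lost under any alternative that was tried.

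Rpl22 itself had 3697 and 3799 in DP cells, 4164 and 4160.1 in CD4intCD8+ cells and 3890.2 and 3921 in CD8SP cells on its brightest probe. The arrays of the 3 stages did not overlap, with CD4intCD8+ highest, but neither change was called (0.15 ± 0.06, adjusted p = 0.153, in CD4intCD8+ and 0.06 ± 0.06, adjusted p = 0.56, in CD8SP). The other probes of Rpl22 gave larger changes: 0.32 and 0.24 on the probe with a mean intensity of 2768, and 0.39 and 0.66 on the probe with a mean of 241. When probes with the suffixes _x_at and _s_at, which can bind several transcripts, were left out, Rpl22 was called in CD4intCD8+ (0.32, adjusted p = 0.0438), and with the mean of all its probes it was called in CD8SP (0.32, adjusted p = 0.0434). Whether Rpl22 rose thus depended on the probe, and on no probe was its change as large as that of Rpl22l1.

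**Figure D1:**
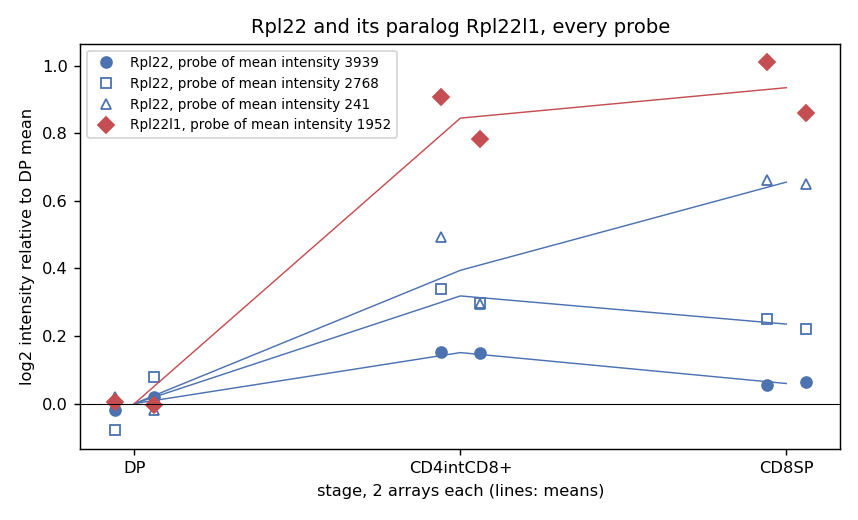
Log2 intensity of each array relative to the DP mean (vertical axis) for the 3 probes of Rpl22 (blue) and the probe of Rpl22l1 (red) at each stage (horizontal axis, 2 arrays each, lines through the means). Rpl22l1 lies highest at both later stages, with mean changes of 0.85 and 0.94, while the brightest Rpl22 probe changes by 0.15 and 0.06.

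Rps27l, the paralog of Rps27 and in human cells a target of p53, had intensities of 1063 and 1314 in DP cells, 1686 and 2297 in CD4intCD8+ cells and 1707 and 1903 in CD8SP cells. The later arrays lay above the DP arrays and overlapped each other. Rps27l rose by 0.73 ± 0.16 (adjusted p = 0.0194) in CD4intCD8+ and by 0.61 ± 0.16 (adjusted p = 0.0258) in CD8SP, and its 3 probes moved alike, by 0.69 to 0.76 and by 0.61 to 0.71. The first call was lost without DP replicate 1 (adjusted p = 0.13), DP replicate 2 (0.0568) or CD4intCD8+ replicate 2 (0.0849), and the second without DP replicate 1 (0.162) or CD8SP replicate 2 (0.132). Both were lost without the intensity trend (0.0614 and 0.0739). When the actin ratio was a covariate, the change of Rps27l in CD4intCD8+ was 0.32 (adjusted p = 0.303). Rps27 was measured by a dim probe with 45.9 and 35.6 in DP cells, 44.7 and 30.6 in CD4intCD8+ cells and 29.8 and 35.6 in CD8SP cells. Its arrays overlapped between DP and CD4intCD8+, and it was not called against DP in either later stage (adjusted p = 0.808 and 0.482).

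Rps4l, a mouse relative of the X-linked small-subunit gene Rps4x, had 99.7 and 97.5 in DP cells, 147 and 159.8 in CD4intCD8+ cells and 201 and 185 in CD8SP cells. The stages were ordered without overlap, DP lowest and CD8SP highest. It rose by 0.61 ± 0.14 in CD4intCD8+ (adjusted p = 0.0254) and by 0.93 ± 0.14 in CD8SP (adjusted p = 0.00218), while CD8SP against CD4intCD8+ (0.32 ± 0.14) was not called (adjusted p = 0.501). The CD4intCD8+ call of Rps4l was lost without DP replicate 1 (adjusted p = 0.112), DP replicate 2 (0.115) or CD4intCD8+ replicate 2 (0.136) and once the actin covariate was added (0.202), and the CD8SP call under no alternative. Rps4x had 5162 and 4898 in DP cells, 5189 and 4979 in CD4intCD8+ cells and 4839 and 5015 in CD8SP cells, which overlap, and was not called (adjusted p = 0.898 and 0.785).

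Rpl3l, which takes the place of Rpl3 in skeletal muscle and heart, had 22.5 and 22.3 in DP cells, 55.02 and 53.4 in CD4intCD8+ cells and 66.8 and 51.9 in CD8SP cells. These are dim signals, and the DP arrays lay below the filter intensity of 30.7, which the gene passed through its later stages. It rose by 1.09 ± 0.20 (adjusted p = 0.0116) in CD4intCD8+ and by 1.20 ± 0.20 (adjusted p = 0.00376) in CD8SP, and the first call did not hold without DP replicate 1 (0.0688), without DP replicate 2 (0.0696) or with the actin covariate (0.0556), and the 60th-percentile filter left the gene untested. Rpl39l, a relative of Rpl39 that is enriched in mouse testis, had 20.9 and 25.1 in DP cells, 25.3 and 12.9 in CD4intCD8+ cells and 32.97 and 25.8 in CD8SP cells and did not pass the filter. Rpl39 itself had 3044 and 2978 in DP cells, 3198 and 3037 in CD4intCD8+ cells and 3184 and 3084 in CD8SP cells, with changes of 0.05 and 0.06 against DP (adjusted p = 0.696 and 0.62).

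Rpl7l1, a relative of Rpl7, was the tested paralog that was not called. It had 329 and 376 in DP cells, 376 and 417 in CD4intCD8+ cells and 392 and 417 in CD8SP cells (0.17, adjusted p = 0.434, and 0.20, adjusted p = 0.332). Rps19bp1, the binding protein of Rps19, had 184 and 198 in DP cells, 209 and 225 in CD4intCD8+ cells and 202 and 250.4 in CD8SP cells, and was not called either (0.18, adjusted p = 0.476, and 0.23, adjusted p = 0.326).

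Of the 42 canonical subunits tested, 6 were higher in CD4intCD8+ against DP, 7 were higher in CD8SP against DP and 0 were lower in either, with medians of 0.04 and -0.02. The shares called were 14.3% and 16.7%, beside 11.7% and 19.9% of all genes tested. The count of 6 was 1 without DP replicate 2, 2 without DP replicate 1 or CD4intCD8+ replicate 2, 1 with the actin covariate and 3 without the intensity trend, and the count of 7 was 2 without DP replicate 2, 3 without CD8SP replicate 2 and 4 without the trend. The 25 large-subunit genes tested, paralogs included, gave 4 higher in each comparison, and the 22 small-subunit genes gave 6 and 7. Rpl14, a large-subunit protein, had the largest change of all members tested. It had 116 and 127 in DP cells, 288 and 326 in CD4intCD8+ cells and 275 and 389 in CD8SP cells. The later stages overlapped each other and lay above both DP arrays. Rpl14 rose 2.45-fold in CD4intCD8+ (1.29 ± 0.18, adjusted p = 0.00501) and 2.61-fold in CD8SP (1.39 ± 0.18, adjusted p = 0.00105), and kept both calls under every alternative that was tried. The gene was measured by 1 dim probe with a mean intensity of 254, and no other probe could be set beside it.

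Rps6, the small-subunit protein phosphorylated by the S6 kinases downstream of mTORC1, had 392 and 322 in DP cells, 596 and 604 in CD4intCD8+ cells and 563 and 589.9 in CD8SP cells. It rose by 0.75 ± 0.13 (adjusted p = 0.0101) in CD4intCD8+ and by 0.69 ± 0.13 (adjusted p = 0.00681) in CD8SP, and both calls were lost without DP replicate 2 (0.0675 and 0.0514), the first also with the actin covariate (0.0575). Rps25, a small-subunit protein needed for initiation at some viral internal ribosome entry sites, had 142 and 115 in DP cells, 217 and 200.3 in CD4intCD8+ cells and 215 and 234 in CD8SP cells. Its later arrays lay above the DP arrays, as those of Rps6 did. Rps25 rose by 0.68 ± 0.15 (adjusted p = 0.0233) in CD4intCD8+ and by 0.78 ± 0.15 (adjusted p = 0.0076) in CD8SP. The first call was lost when any single DP or CD4intCD8+ array was left out (from 0.0541 to 0.134) and with the actin covariate (0.0862), and the second without DP replicate 2 (0.0627) or CD8SP replicate 2 (0.0509).

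Rpl37, a zinc-binding protein of the large subunit, had 506 and 407 in DP cells, 627 and 726 in CD4intCD8+ cells and 734 and 711 in CD8SP cells on a probe with the _x_at suffix. The DP arrays were lowest without overlap. It rose by 0.57 ± 0.14 (adjusted p = 0.0316) in CD4intCD8+ and by 0.66 ± 0.14 (adjusted p = 0.0106) in CD8SP. The first call was lost without DP replicate 1 (0.0518), DP replicate 2 (0.162) or CD4intCD8+ replicate 2 (0.183), with the actin covariate (0.269) and without the intensity trend (0.0722), and the second without DP replicate 2 (0.0732).

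The remaining canonical members that were called, Rps2, Rps19 and Rps18, lie on bright probes and changed by at most 0.35. Rps2, which lines the entry path of the messenger RNA and was named after its values were seen, had 3822 and 3906 in DP cells, 4810.4 and 4956 in CD4intCD8+ cells and 4804 and 5049 in CD8SP cells. It rose 1.26-fold in CD4intCD8+ (0.34 ± 0.06, adjusted p = 0.0126) and by 0.35 ± 0.06 in CD8SP (adjusted p = 0.00567). The first call was lost without DP replicate 1 (0.0707), DP replicate 2 (0.0613) or CD4intCD8+ replicate 2 (0.0738) with arrays centred on their medians (0.0526), with the actin covariate (0.143) and without the intensity trend (0.141). The second was lost without CD8SP replicate 2 (0.0525) and without the trend (0.105), and Rps2 had no other probe to stand for it when _x_at probes were left out.

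Rps19, the gene most often mutated in Diamond-Blackfan anaemia in humans, had 3922 and 3816 in DP cells, 4577 and 4554 in CD4intCD8+ cells and 4609 and 4685 in CD8SP cells. The DP arrays of Rps19 and Rps2 lay below all their later arrays. Rps19 rose by 0.24 ± 0.06 (adjusted p = 0.039) in CD4intCD8+ and by 0.26 ± 0.06 (adjusted p = 0.0176) in CD8SP, but the first call was lost under most alternatives (from 0.0528 to 0.264) and the second when any single DP or CD8SP array was left out (from 0.0513 to 0.106), with no filter (0.0715), with centred arrays (0.116) and without the intensity trend (0.192). Rps18, a protein of the head of the small subunit that was named after its values were seen, had 4159.5 and 3958 in DP cells, 4530.3 and 4439.6 in CD4intCD8+ cells and 4724 and 4849 in CD8SP cells. It was called in CD8SP alone (0.24 ± 0.06, adjusted p = 0.0304), against 0.14 ± 0.06 (adjusted p = 0.172) in CD4intCD8+; the CD8SP call was lost when any single DP or CD8SP array was left out (from 0.0593 to 0.161), with no filter (0.106), with centred arrays (0.171), with the mean of all probes (0.282) and without the intensity trend (0.241).

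**Figure D2:**
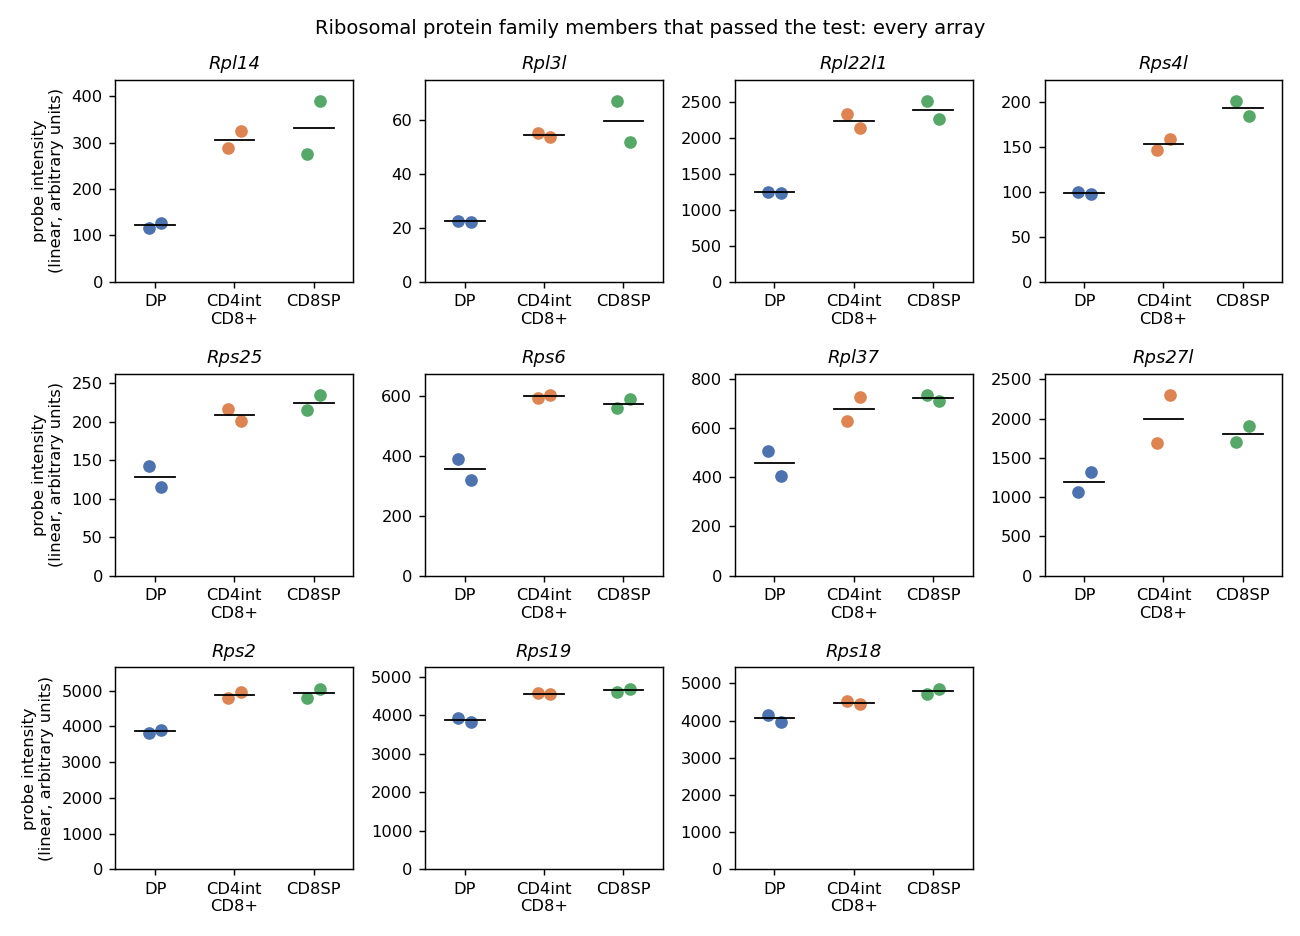
Probe intensity (vertical axes, linear, from 0) on every array at each stage (horizontal axes) for the 11 members that passed the test in CD4intCD8+ or CD8SP against DP. Points are single arrays and bars are means of 2 arrays. In each panel both DP arrays lie below all later arrays, from a change of 0.24 on the log2 scale for Rps18 to 1.39 for Rpl14 in CD8SP.

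Promoter sequences around the start sites are shown because the pyrimidine run at the start is the hallmark of this gene family, and members that rose can be set beside members that did not. RefSeq (GRCm38.p6) held promoters of 44 of the 50 members, 52 in all. Each line gives 15 bases before and 15 bases from the listed start, on the strand of the gene. Capitals mark the longest run of pyrimidines that begins with C. The first 5 genes rose and the last 2 were not called.
Rpl14, chr9:120571502-120571531, plus strand: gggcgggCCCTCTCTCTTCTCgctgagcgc
Rpl22l1, chr3:28805493-28805522, plus strand: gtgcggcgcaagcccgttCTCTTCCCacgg
Rps27l, chr9:66946071-66946100, plus strand: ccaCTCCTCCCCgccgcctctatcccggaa
Rps6, chr4:86857353-86857382, minus strand: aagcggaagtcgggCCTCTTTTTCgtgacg
Rps25, chr9:44407699-44407728, plus strand: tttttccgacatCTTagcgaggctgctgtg
Rpl13a, chr7:45128731-45128760, minus strand: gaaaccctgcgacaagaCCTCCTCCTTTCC
Rplp2, chr7:141447636-141447665, plus strand: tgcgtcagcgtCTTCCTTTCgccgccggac

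A run of at least 6 pyrimidines that begins with C lay within this window in 25 of the 52 member promoters (48.1%), and in 7384 of the 32851 promoters of the table (22.5%). Among the members called higher in CD8SP against DP it lay in 7 of 14 promoters (50%) of 10 genes, and among the other members in 18 of 38 (47.4%) of 34 genes. Rpl14 has a run of 14, Rps6 of 10 and Rps27l of 9, while the longest run of Rps25 is 3. A run counted here can lie anywhere in the window, and that of Rps27l ends before the listed start. Such runs are therefore not read as terminal oligopyrimidine tracts. Rpl13a, which was not called, has a run of 13. The letters of an ETS-family site, CCGGAAG or on the other strand CTTCCGG, occurred in the 300-base promoter of 21 member promoters (40.4%), against 8.86% of all promoters. They were in 42.9% of those of the members called higher in CD8SP and in 39.5% of those of the other members. The YY1 letters AAGATGGC or GCCATCTT occurred in 4 member promoters (7.69%) and 2.75% of all promoters. Several promoters can belong to 1 gene, and a match is only a match of letters.

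Among the members tested, 35 were measured by probes with a mean intensity of at least 2000, all of them canonical, and 13 by dimmer probes; this limit was set after the values were seen. Of the 35, 2 were called in CD4intCD8+ and 3 in CD8SP against DP. Their log2 changes lay between -0.12 and 0.34 with a median of 0.04 in CD4intCD8+, and between -0.15 and 0.35 with a median of -0.03 in CD8SP. Of the 13 on dimmer probes 8, Rpl3l included, were called higher in each comparison. Among 10763 other tested genes below that limit, 11.6% were called in CD4intCD8+ against DP (734 higher and 517 lower). In CD8SP against DP the share of these genes was 19.7% (1239 higher and 881 lower). The paralogs all lie among the dimmer probes, so role and brightness go together here.

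Of 105 other genes with a mean of at least 2000, 19% were called in CD4intCD8+ (8 higher and 12 lower) and 39% in CD8SP against DP (7 higher and 34 lower). The median size of their log2 changes was 0.18 and 0.22, against 0.06 and 0.06 for the 35 members. No array exceeded an intensity of 7113, and whether bright probes respond less than in proportion to RNA was not tested.

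**Figure D3:**
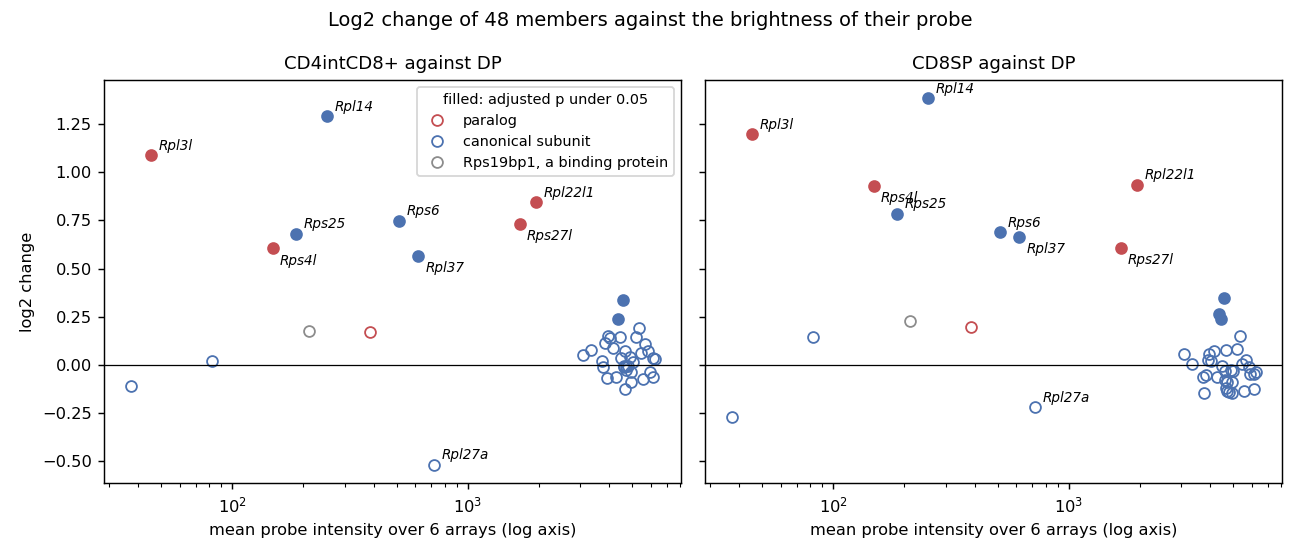
Log2 change of the 48 tested members (vertical axis) against the mean intensity of their probe over 6 arrays (horizontal axis, log scale), for CD4intCD8+ against DP (left) and CD8SP against DP (right). Filled points were called, red points are paralogs and blue points canonical subunits. The 35 brightest lie between -0.15 and 0.35, and the 8 labelled filled points lie between 0.57 and 1.39.

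The 5 members with the brightest probes were Rpl41, Rps3a1, Rpl13a, Rplp2 and Rpl37a. Rpl41, a very short peptide of the large subunit, had 6180.4 and 6349 in DP cells, 6567 and 6259 in CD4intCD8+ cells and 5806 and 6407 in CD8SP cells. Rps3a1, of the small subunit, had 6304 and 6030.4 in DP cells, 6414 and 6237 in CD4intCD8+ cells and 5958 and 5963 in CD8SP cells, and Rpl37a 5537 and 5977 in DP cells, 5957 and 6144 in CD4intCD8+ cells and 5698 and 5713 in CD8SP cells. None of these was called in any comparison, and in CD4intCD8+ against DP the arrays of each overlapped. Rpl13a, which in human monocytes also silences inflammatory transcripts, had 6337 and 6411 in DP cells, 6139.7 and 6087 in CD4intCD8+ cells and 5876 and 5825 in CD8SP cells. Its stages were ordered without overlap, DP highest, but the changes of -0.06 and -0.12 were not called (adjusted p = 0.512 and 0.15).

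The acidic stalk, which recruits the GTPase translation factors, is represented by Rplp0 and Rplp2. Rplp0 had 5394 and 5068 in DP cells, 4919.8 and 4920.4 in CD4intCD8+ cells and 4745 and 4719.5 in CD8SP cells, again ordered without overlap and with DP highest (-0.09, adjusted p = 0.389, and -0.14, adjusted p = 0.14). Rplp2 had 6130.4 and 5929.7 in DP cells, 6023 and 5757 in CD4intCD8+ cells and 5846 and 5838 in CD8SP cells (-0.03, adjusted p = 0.748, and -0.05, adjusted p = 0.632). Neither stalk gene changed by the test.

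Rpl11, which with Rpl5 binds Mdm2 when ribosome assembly is disturbed, had 3702 and 4001 in DP cells, 4122 and 4378 in CD4intCD8+ cells and 3847 and 3977 in CD8SP cells. CD4intCD8+ was highest without overlap, and neither change was called (0.14, adjusted p = 0.228, and 0.02, adjusted p = 0.854). Rpsa, the small-subunit protein also known as the laminin receptor, had 4776 and 5046 in DP cells, 5735 and 5477 in CD4intCD8+ cells and 5352 and 5553 in CD8SP cells. It was not called in CD4intCD8+ (0.19 ± 0.06, adjusted p = 0.0821) but was when the replicate number entered as a block (adjusted p = 0.0318). In CD8SP Rpsa had 0.15 ± 0.06 (adjusted p = 0.128), and it was called after quantile normalization (0.24, adjusted p = 0.0198).

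Of the 50 members, counting those under the filter, 24 had both CD4intCD8+ arrays above both DP arrays and 8 below; over all genes tested the shares were 30.8% and 27.9%. In CD8SP against CD4intCD8+ 4 members lay above and 19 below, beside 20.2% and 18.6% of all genes. In CD8SP against DP 19 lay above and 17 below, beside 32.5% and 29.1%. In CD8SP against CD4intCD8+ the change closest to the threshold was that of Rpl6, named after its values were seen, at -0.17 ± 0.06 (adjusted p = 0.431). Changes of the members that were tested and not called against DP ran from -0.52 to 0.19 in CD4intCD8+ and from -0.27 to 0.23 in CD8SP.

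Rpl27a, a large-subunit gene named after its values were seen, had the lowest change of the tested members in CD4intCD8+ against DP, and its value there turned on single arrays and on the actin ratio. It had 946 and 657 in DP cells, 1090.4 and 275 in CD4intCD8+ cells and 593 and 774 in CD8SP cells, and its change in CD4intCD8+ was -0.52 ± 0.50 (adjusted p = 0.537). The CD4intCD8+ arrays were the highest and the lowest of the 6. Without CD4intCD8+ replicate 1 Rpl27a was called lower in CD4intCD8+ against DP (-1.50, adjusted p = 0.00292) and higher in CD8SP against CD4intCD8+ (1.28, adjusted p = 0.0282). Without CD4intCD8+ replicate 2, which held the low value and the actin ratio of 3.47, the change in CD4intCD8+ against DP was 0.46 (adjusted p = 0.294), and Rpl27a had, with the actin ratio entered as covariate, 0.90 ± 0.36 (adjusted p = 0.241).

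The dimmest members give little information. Rps16 had 3.59 and 15.6 in DP cells, 2.82 and 1.42 in CD4intCD8+ cells and 1.23 and 4.58 in CD8SP cells and did not pass the filter, although it encodes a subunit found in every ribosome. Rpl12 had 86.3 and 71.5 in DP cells, 74.97 and 85.2 in CD4intCD8+ cells and 79.5 and 96.6 in CD8SP cells, which overlap (adjusted p = 0.949 and 0.601). Since levels cannot be compared between probes, these dim signals are not read as low levels of the messenger RNA; their cause was not tested.

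Probes of the same gene did not always move together. Rps3, named after its values were seen, had 4295 and 4598 in DP cells, 4601 and 4523 in CD4intCD8+ cells and 4252 and 4602 in CD8SP cells on its brightest probe, with changes of 0.04 and -0.01. Its probe with a mean of 128 had 78.1 and 68.4 in DP cells, 150.4 and 161 in CD4intCD8+ cells and 149 and 157 in CD8SP cells, with changes of 1.03 and 1.01. The bright probes of Rps18 gave 0.14 to 0.25 in CD4intCD8+ and 0.15 to 0.28 in CD8SP, while a dim probe of the gene with a mean of 54.2 gave -0.27 and -0.47. Rpl14, Rps25 and Rpl37 each had 1 probe, with means of 254, 187 and 618, so probes could not be compared for them. Of the probes that stand for members, 14 carry the suffix _x_at and 2 _s_at. Ribosomal protein genes have many near-identical processed copies, so for these probes, among them those of Rps2, Rps18 and Rpl37, the gene that gave the signal is uncertain.

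Genes that build the ribosome were described beside the members. Over all genes tested 11.7% were called in CD4intCD8+ and 19.9% in CD8SP against DP. Beside these, the shares were 50% and 75% for assembly genes and 27.8% and 38.9% for polymerase genes. They were 18.4% and 19.7% for mitochondrial ribosomal proteins, 20% and 33.3% for elongation factors and 11.5% and 15.4% for initiation factors. Genes of mTORC1, Myc and translation control had 11.1% and 27.8%, and those of faulty ribosomes or p53 16.7% and 33.3%. Of 24 ribosome assembly and nucleolar genes 12 were higher in CD4intCD8+ against DP and 0 lower (18 and 1 with the replicate block), and 18 were higher and 0 lower in CD8SP against DP. Their medians were 0.57 and 0.71. Nhp2, a protein of the pseudouridylation complex of ribosomal RNA, had 317 and 335 in DP cells, 717 and 773 in CD4intCD8+ cells and 913 and 1015 in CD8SP cells. It rose by 1.18 ± 0.12 (adjusted p = 0.00129) and by 1.55 ± 0.12 (adjusted p = 8.89e-05), with the stages ordered without overlap. Gnl3, the nucleolar GTPase nucleostemin, had 255 and 238 in DP cells, 460.2 and 543 in CD4intCD8+ cells and 557 and 644 in CD8SP cells and rose by 1.00 ± 0.14 (adjusted p = 0.0049) and 1.26 ± 0.14 (adjusted p = 0.000491). Nhp2 and Gnl3 kept these calls under every alternative that was tried. Npm1, the abundant nucleolar chaperone nucleophosmin, had 2182 and 2195 in DP cells, 2768 and 3008 in CD4intCD8+ cells and 2809.9 and 2910.1 in CD8SP cells and rose by 0.40 ± 0.08 (adjusted p = 0.014) and 0.39 ± 0.08 (adjusted p = 0.00908); the first call was lost without either DP array (0.074 and 0.0709) or CD4intCD8+ replicate 2 (0.103), and the second without CD8SP replicate 2 (0.0644). The count of 12 assembly genes was 6 when DP replicate 1 was left out, 5 when DP replicate 2 was, and 6 when CD4intCD8+ replicate 2 was. It was 2 with actin as a covariate and 7 without the intensity trend, and that of 18 was 11 without CD8SP replicate 2.

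Of 18 genes of RNA polymerases I and III, which transcribe ribosomal and transfer RNA, 4 were higher and 1 lower in CD4intCD8+ against DP (5 and 3 with the replicate block), and 6 were higher and 1 lower in CD8SP against DP. The genes higher in CD4intCD8+ were Polr1a, Polr1b (0.82), Polr1c (0.60) and Polr2f (0.49). Polr1a, the largest subunit of polymerase I, rose by 0.71 ± 0.18 (adjusted p = 0.0331) and 0.99 ± 0.18 (adjusted p = 0.00503), the first call being lost when any single DP or CD4intCD8+ array was left out (from 0.0595 to 0.174). The gene that fell was Maf1, a repressor of polymerase III, which had 989 and 924 in DP cells, 606 and 499.6 in CD4intCD8+ cells and 649 and 557 in CD8SP cells (-0.79 ± 0.13, adjusted p = 0.00916, and -0.66 ± 0.13, adjusted p = 0.00922). The mean of all its probes gave no call for Maf1 (0.109 and 0.197), and its call in CD4intCD8+ did not hold without DP replicate 1 (0.069) or without DP replicate 2 (0.0572). After leaving out DP replicate 1, DP replicate 2 or CD4intCD8+ replicate 2, 0 polymerase genes were higher in CD4intCD8+, as with the actin covariate, and 1 or 2 were with any other single array left out, with no filter, quantile normalization, the mean of all probes, no intensity trend or the 4 arrays alone. The higher count in CD8SP was 2 without DP replicate 1, without CD8SP replicate 2 or after averaging all probes, and Maf1 was not called in these.

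The 76 mitochondrial ribosomal proteins, which build the separate ribosome of the mitochondrion, gave 14 higher and 0 lower in CD4intCD8+ (32 higher with the replicate block) and 14 higher and 1 lower in CD8SP against DP (30 and 1 with the block), with medians of 0.32 and 0.30. Mrps15 had 232 and 238 in DP cells, 369.8 and 389 in CD4intCD8+ cells and 397 and 479 in CD8SP cells and rose by 0.68 ± 0.14 (adjusted p = 0.0153) and 0.88 ± 0.14 (adjusted p = 0.00264). Both calls of Mrps15 were lost with the mean of all its probes (0.236 and 0.127). Mrpl43 was the one that fell, with 443 and 426 in CD8SP against 531 and 631 in DP (-0.41 ± 0.13, adjusted p = 0.0489), a call lost when any single array was left out (from 0.0593 to 0.251). Without DP replicate 1 or CD4intCD8+ replicate 2, 0 were called in CD4intCD8+, and without DP replicate 2, 2 were. It was 0 with the actin covariate, 3 without the intensity trend and 3 with the mean of all probes. In CD8SP the higher count was 2 without DP replicate 1, 2 without CD8SP replicate 2, 6 after averaging all probes and 8 without the trend.

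Of 15 elongation factors and other genes with a terminal oligopyrimidine tract, 3 were higher and 0 lower in CD4intCD8+ (4 and 2 with the replicate block), and 3 were higher and 2 lower in CD8SP against DP, with medians of 0.10 and 0.00. The higher count in CD4intCD8+ was 0 without DP replicate 2 and 1 without any other array. The exchange-factor subunits Eef1b2 and Eef1d were higher in both, by 0.24 to 0.54, as was Nap1l1. Nap1l1, a histone chaperone, rose by 0.75 ± 0.12 (adjusted p = 0.00721) and 0.84 ± 0.12 (adjusted p = 0.00155), the first call being lost without DP replicate 2 (0.0572). Eef1a1, which delivers aminoacyl transfer RNA to the ribosome, had 6159 and 5914 in DP cells, 5928 and 5684 in CD4intCD8+ cells and 5257 and 5216 in CD8SP cells. It fell by 0.20 ± 0.06 on the log2 scale in CD8SP (adjusted p = 0.0403), where Tpt1, a growth-related protein, also fell by 0.20 ± 0.06 (adjusted p = 0.0406). When any single DP or CD8SP array was left out, the calls of Eef1a1 (from 0.0774 to 0.17) and Tpt1 (from 0.0863 to 0.196) were lost. Eef2, which moves the ribosome along, was not called (-0.14, adjusted p = 0.246, and -0.09, adjusted p = 0.42). Among 26 initiation factors 3 were higher in CD4intCD8+ and 4 in CD8SP against DP, and 0 lower (5 and 2 with the block in CD4intCD8+, and 7 and 0 in CD8SP); Eif2b3, a subunit of the exchange factor for eIF2, rose by 1.02 ± 0.15 in both (adjusted p = 0.00532 and 0.00183). Eif1a (0.66 and 0.77) and Eif2s2 (0.45 and 0.34) were also higher in both, and Eif3b (0.56) in CD8SP. The initiation count in CD4intCD8+ was 1 without DP replicate 1, DP replicate 2 or CD4intCD8+ replicate 2, and that in CD8SP was 2 without either DP array and 1 without CD8SP replicate 2. Fau, which encodes a small-subunit protein under another name, had 4926 and 5083 in DP cells, 4809.6 and 4575 in CD4intCD8+ cells and 4477 and 4616 in CD8SP cells and was not called (adjusted p = 0.37 and 0.161).

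Of 18 genes of mTORC1, Myc and translation control, 1 was higher and 1 lower in CD4intCD8+ (2 and 2 with the block), and 3 were higher and 2 lower in CD8SP against DP. Myc, a transcription factor known to drive ribosome production, had 43.8 and 27.8 in DP cells, 95.4 and 116 in CD4intCD8+ cells and 201 and 171 in CD8SP cells. Its stages were ordered without overlap, and it rose by 1.44 ± 0.21 (adjusted p = 0.00572) and 2.23 ± 0.21 (adjusted p = 0.000264), calls that no alternative lost. Mxd1, which competes with Myc for its partner Max, had 77.1 and 72.5 in DP cells, 93.2 and 82.6 in CD4intCD8+ cells and 136 and 116 in CD8SP cells. Mxd1 rose in CD8SP (0.70 ± 0.16, adjusted p = 0.0138), a call lost without DP replicate 1 (0.0622), DP replicate 2 (0.0828) or CD8SP replicate 1 (0.0811) and with the mean of all its probes (0.995). The other calls of this list were Mxd4, a relative of Mxd1, lower in both (-0.44 and -0.48), and in CD8SP Larp1, which binds the oligopyrimidine tract, higher by 0.68, and the S6 kinase gene Rps6kb2 at -0.71. In CD8SP 1 gene was higher and 0 were lower without either DP array, and the lower count was also 0 without CD8SP replicate 2 and with the actin covariate. Of 6 genes tested that sense faulty ribosomes or are targets of p53, 0 were higher, with 1 lower in CD4intCD8+ (2 with the block) and 2 lower in CD8SP against DP. Trp53inp1, a p53 target, was the gene lower in CD4intCD8+ (-0.59, adjusted p = 0.0126, lost without either DP array or CD4intCD8+ replicate 2, from 0.0569 to 0.0795). Those lower in CD8SP were Trp53inp1, which fell by 0.91 ± 0.11, and Mdm2, the ubiquitin ligase of p53, which fell by 0.67 ± 0.13 (adjusted p = 0.000781 and 0.00837); the Mdm2 call was lost without DP replicate 1 (0.071). In CD8SP against CD4intCD8+ 0 genes of any of these lists were called.

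**Figure D4:**
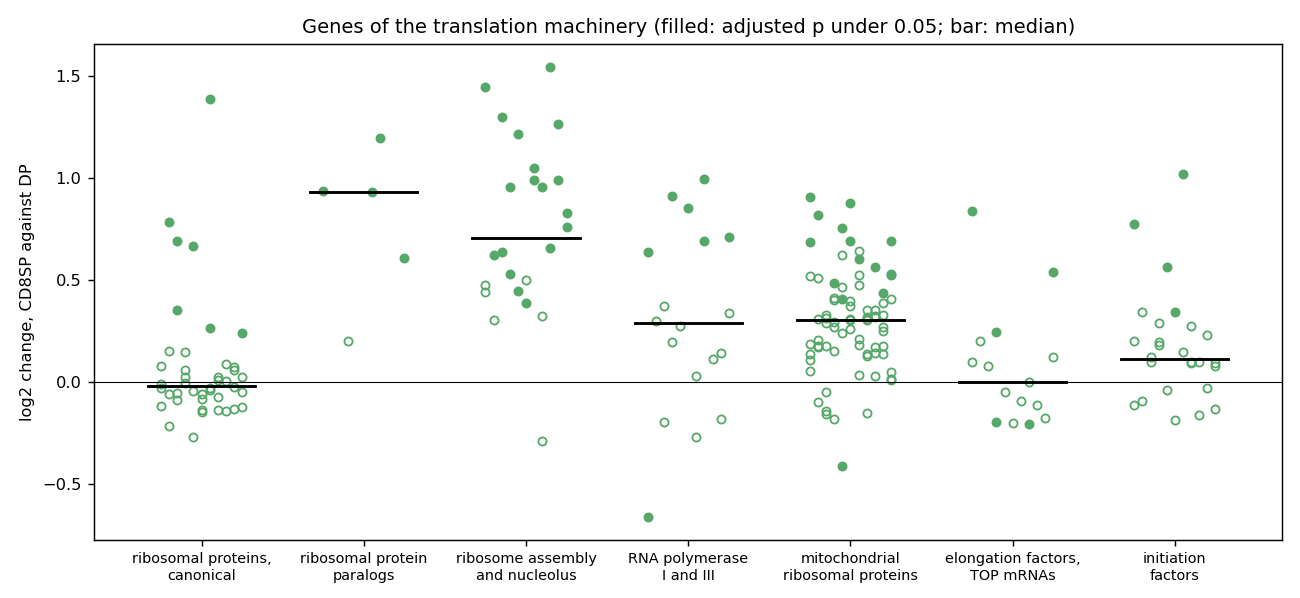
Log2 change in CD8SP against DP (vertical axis) of each tested gene in 7 groups of the translation machinery (horizontal axis), filled where called, with a bar at the median. The medians are -0.02 for canonical ribosomal proteins, 0.71 for ribosome assembly and nucleolar genes and 0.30 for mitochondrial ribosomal proteins.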

How the data were processed

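Per the labels, total RNA of sorted thymocytes was converted to biotin-labelled cRNA and hybridised, 1 array per sample. The deposited values are linear intensities of 45101 probes, 64 of them controls, on each array; how the authors made these intensities, with which software and scaling, is not stated in the labels or headers, and no further normalization was applied. Probes with 1 gene symbol in the platform annotation (34945) were kept and each gene was represented by its probe of highest mean. Negative values were raised to 0 before taking log2(intensity + 5.84), the pseudocount being the 10th percentile of the positive values; it understates changes of dim genes. Genes whose mean lay below the 40th percentile (5.19 on the log2 scale) were not tested.

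All 6 arrays were fitted with limma 3.58.1 (R 4.3.3; lmFit, and eBayes with an intensity trend), with stage as the only term and 3 residual and 6.08 prior degrees of freedom. Benjamini-Hochberg adjustment ran over all 10916 genes within each contrast. The number of arrays limits the precision, and the median SE of a log2 change was 0.17. The procedure was tested on simulated data.

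Arrays of the same replicate number deviated together from their stage means (correlations across genes of 0.26, 0.21 and 0.30). The labels name a pair of experiments. The main fit, which gave the calls, SEs and adjusted p-values, does not use this pairing. An alternative fit added the replicate number as a block. The blocked value is given where it changes the call of a member or moves a count by over 1.5 times.

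Members and gene lists were chosen with earlier results of these data known. Named members were the 8 largest called changes without overlap in each direction and comparison, the 5 brightest and 5 dimmest, and 24 fixed anchors, of which 8 are not members here; for other lists up to 4 genes of largest change were eligible, with Myc, Eef1a1, Eef2, Npm1 and Fau. Names outside this rule are marked. The alternatives were other pseudocounts (1 and 32), filters, scalings, probe choices, variance models, an actin covariate, the replicate block and leaving out each array. With an array left out, the lone array of its stage is assumed to vary like the others.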

Additional observations from a re-analysis of the deposited data

How the results depend on the processing

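The 11 called members held 21 calls, which gave 372 values under the alternatives; all were positive, 305 kept the call and 67 lost it. The calls were picked as higher on these same arrays, so the shared sign is not separate evidence for the direction. With the replicate number as a block, which pairs the arrays of an experiment, 11 members were called in CD4intCD8+ against DP, 0 in CD8SP against CD4intCD8+ and 11 in CD8SP against DP, and over all genes 2572, 226 and 3278. The block changed no other member's call than that of Rpsa. Without the intensity trend 6 members were called in CD4intCD8+ and 7 in CD8SP against DP and 6 over the stages, with 806 genes in CD4intCD8+ against DP. With the actin ratio as a covariate 2 members and 410 genes were called in CD4intCD8+ against DP and 34 genes in CD8SP against CD4intCD8+. The mean of all probes gave 764 genes in CD4intCD8+ against DP and 2 in CD8SP against CD4intCD8+, with member medians of -0.011 in CD8SP against CD4intCD8+ and 0.062 in CD8SP against DP. In CD8SP against CD4intCD8+ the 60th-percentile filter gave 8 genes and the 4 arrays alone gave 8.

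Member medians lay near 0 and moved with the scaling. After quantile normalization they were 0.018 in CD8SP against CD4intCD8+, where the sign turned, and 0.10 in CD8SP against DP. With arrays centred on the median they were 0.0047 in CD4intCD8+ against DP and -0.054 in CD8SP against DP, where the sign turned. Leaving out 1 array at a time, the members called were 2 to 9 in CD4intCD8+ against DP (2 to 9 higher and 0 to 1 lower), 0 to 1 in CD8SP against CD4intCD8+, 6 to 11 in CD8SP against DP and 2 to 11 over the stages. The genes called were 194 to 1406, 6 to 73 and 1025 to 2350, and the member medians 0.051 to 0.084, -0.067 to -0.022 and -0.023 to 0.041. The causes were not tested. Signals near the pseudocount, such as those of Rps16 and Rpl39l, support no fold change.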
